A study of Mus musculus with 28 samples.

Results

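The loci of Pax7 and Pax3 were examined in lists of accessible chromatin peaks from mouse cells, by placing and counting every listed peak that overlapped a fixed window around each gene by at least 1 bp. The windows were chr4:139190000-139490000 for Pax7 and chr1:78000000-78300000 for Pax3, in the mm9 mouse genome build of the lists, and each was 300 kb long. Of the 2048700 peaks of the series, 628 fell in these windows, 418 at Pax7 and 210 at Pax3. The windows are set by position and by no measured value, though they were chosen with earlier results of these data known. No mm9 gene annotation was used here, so a peak is given by its position and is not assigned to a promoter, exon or intron, and a window may hold parts of neighbouring genes. In the GRCm38.p6 gene order the nearest protein-coding neighbours are Tas1r2 and Klhdc7a for Pax7.

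The study measured accessibility by ATAC-seq, in which a transposase cuts open chromatin, in 28 libraries, 2 for each of 14 groups. The mouse embryonic fibroblasts (MEFs) came, per the labels, from day 13.5 embryos. They carried Col1a1-tetO-MyoD with Rosa-rtTA, and the reporter Pax7-nGFP. Doxycycline thus switches on MyoD, the transcription factor that directs fibroblasts to a muscle fate, and nuclear GFP reports on Pax7. The same genotype text stands on every fibroblast group, the day 0 controls included. The MEF14 groups were MEF14_Day0; MEF14_Dox+FRG at days 2, 4, 6 and 8; MEF14_Dox+FRG_Day8_GFP and MEF14_Dox+FRG_Day10_GFP; MEF14_Dox+ at days 4 and 8; and MEF14_FRG_Day8. The medium for conversion to muscle progenitors held 2 µg/ml doxycycline with basic FGF (10 ng/ml), forskolin (5 µM, raises cyclic AMP), RepSox (5 µM, blocks a TGF-beta receptor) and CHIR99021 (3 µM, a GSK3 inhibitor). FRG was read as these small molecules, and the medium for conversion to myotubes held doxycycline and FGF without them. The MEF10 groups were MEF10_MyoD+FRG_Day6 and MEF10_MN+FRG_Day6, where MN is not defined by the labels. Satellite cells, which are muscle stem cells, came from adult Pax7-nGFP mice of 10 to 12 weeks and were labelled quiescent_SCs or activated_SCs. Groups without a GFP label are called unsorted, although no label states which cells were sorted.

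Pax3 and Pax7 are paired-box transcription factors, each with a paired domain and a homeodomain that bind DNA. Pax3 acts in early embryonic muscle progenitors and their migration to the limbs, while Pax7 marks adult satellite cells, is needed to keep them and is lost as they differentiate. MyoD and Myf5, the myogenic factors downstream of them, set the muscle programme.

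Because the reporter and the windows meet at Pax7, the Pax7 promoter is shown for orientation. RefSeq's promoter table (GRCm38.p6) had an entry for 1 of the 2 genes, Pax7, and none for Pax3. The bases before the Pax7 start lie at chr4:139832969-139833218 of that build on the minus strand, and no position of it was carried over to mm9, so which listed peak covers it was not determined. The sequence is written 5′ to 3′ with no part marked.
Pax7 promoter: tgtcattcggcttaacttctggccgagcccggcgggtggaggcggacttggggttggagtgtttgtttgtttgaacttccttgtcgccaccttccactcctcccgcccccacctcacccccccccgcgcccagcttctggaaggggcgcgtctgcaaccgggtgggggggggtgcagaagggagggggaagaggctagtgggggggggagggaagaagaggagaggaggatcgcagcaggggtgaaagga
Of its 250 bases 65.2% were G or C, against a median of 52.4% over 32851 promoters. The E-box CANNTG, the motif that MyoD binds and which reads the same on both strands, had 0 matches in this window and at least 1 in 66.2% of all promoters of the table. The match count describes these letters alone.

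The lists held 37301 to 134997 peaks, the fewest in MEF10_MyoD+FRG_Day6 replicate 1 and the most in MEF14_FRG_Day8 replicate 1. Read depth is unknown from the lists, so the peak number in a window is given as listed and per 10000 peaks of its list, called peak density. Most peaks of a list shared 1 width, between 61 bp (FRG) and 205 bp (Dox+FRG day 2), with 500 bp as the commonest width in MEF10_MyoD+FRG_Day6 replicate 2. That list stands apart at Pax7. A single peak of it, chr4:139236687-139439151, was 202465 bp wide and filled 67.5% of the Pax7 window. The widest Pax7 peak of any other list was 1190 bp. None of the comparisons of peak density below uses MEF10 libraries, and single regions are described from the other 27 lists. The labels do not state if paired libraries stem from different cultures or mice. The p-values therefore cover the spread between libraries alone, which may be technical.

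Pax7 had its densest peaks in satellite cells and in GFP-labelled converted cells. As listed, activated satellite cells had 23 and 24 peaks in the Pax7 window and quiescent satellite cells 21 and 12. GFP cells had 18 and 15 at day 8 and 21 and 18 at day 10. Day 0 fibroblasts had 11 and 10. Unsorted Dox+FRG cells had 10 and 8 at day 2, 11 and 4 at day 4, 7 and 12 at day 6 and 14 and 10 at day 8, so none of these 8 libraries reached the lowest GFP library. Dox cells had 21 and 24 at day 4 and 25 and 24 at day 8, and FRG cells 22 and 19, numbers as high as in satellite cells but from lists of up to 134997 peaks. MEF10_MyoD+FRG had 5 and 8, and MEF10_MN+FRG 10 and 11.

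Scaled to the list, the order of the groups at Pax7 began with activated satellite cells at 4.30 ± 0.55 peaks per 10000 (SD, n = 2). Day 8 GFP cells followed at 3.64 ± 0.27, quiescent satellite cells at 3.40 ± 0.33 and day 10 GFP cells at 3.09 ± 0.45, and in these 3 groups the libraries of neighbours in the order overlapped. A gap then separated them from Dox cells at day 4, with 2.39 ± 0.08. Dox cells at day 8 had 2.07 ± 0.33 and unsorted Dox+FRG cells at day 8 had 2.03 ± 0.08, which overlapped. Dox+FRG day 2 stood at 1.71 ± 0.05. Below it FRG cells at 1.53 ± 0.14, day 0 cells at 1.52 ± 0.05, Dox+FRG day 6 at 1.46 ± 0.53, Dox+FRG day 4 at 1.16 ± 0.55, MEF10_MN+FRG at 1.12 ± 0.07 and MEF10_MyoD+FRG at 1.11 ± 0.33 each overlapped the next. Of 6238 windows of this length, 0.689% and 1.33% held more peaks than Pax7 in the activated libraries and 5.50% and 11.4% in the quiescent ones. In the day 0 libraries 40.6% and 43.4% did.

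Pax3 carried fewer peaks and another order. Satellite cells again led, with 9 and 10 peaks when activated and 10 and 6 when quiescent, or 1.73 ± 0.15 and 1.66 ± 0.10 per 10000. FRG cells had 17 and 17 peaks, or 1.27 ± 0.01 per 10000, below all satellite cell libraries once scaled. Dox cells had 11 and 10 peaks at day 4 and 9 and 17 at day 8. GFP cells had 6 and 3 at day 8 and 4 and 6 at day 10, and day 0 fibroblasts 6 and 7. The unsorted Dox+FRG libraries had 6 and 3 at day 2, 6 and 4 at day 4, 3 and 4 at day 6 and 3 and 4 at day 8. MEF10_MyoD+FRG had 3 and 10, and MEF10_MN+FRG 8 and 8. From Dox day 4 at 1.12 ± 0.14 down to Dox+FRG day 6 at 0.54 ± 0.10 per 10000, every group's libraries overlapped those of the next, so this stretch of the order is not separated by these libraries.

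**Figure D1:**
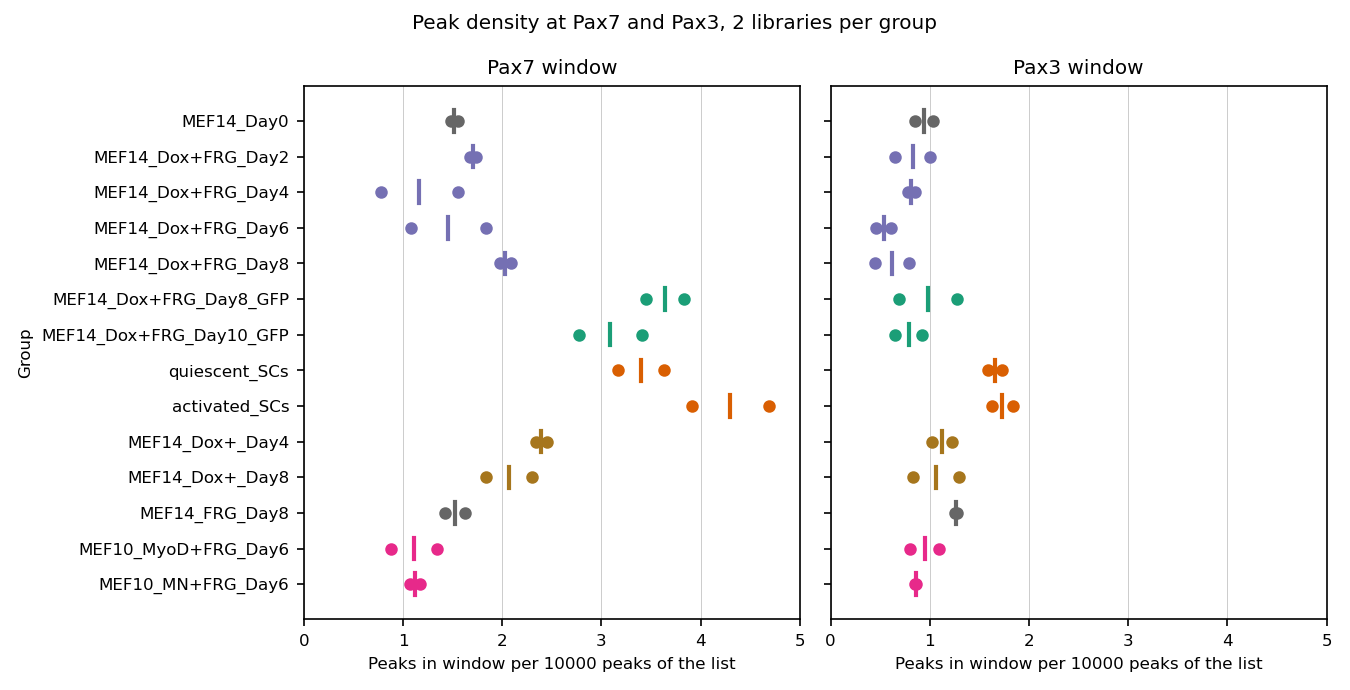
Peak density in the Pax7 window (left) and the Pax3 window (right), in peaks per 10000 peaks of the list, for the 14 groups. Points are single libraries and the vertical bars group means; at Pax7 the 4 GFP and 4 satellite cell libraries lie at 2.77 and above, at Pax3 only the satellite cell libraries lie at 1.58 and above.

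GFP cells were compared with unsorted Dox+FRG cells, each pooled over days. Most unsorted libraries came from earlier days than the GFP libraries, so this comparison does not separate the GFP label from the day. Day 8 was the only day with both. There the mean density at Pax7 was 3.64 per 10000 in GFP cells and 2.03 in unsorted cells (n = 2 each), and no test was made. Peak density at Pax7 was 3.37 ± 0.44 per 10000 in GFP cells (SD, n = 4) and 1.59 ± 0.45 in unsorted cells (n = 8), 2.12-fold higher, and every GFP library lay above every unsorted one. The difference of 1.78 gave p = 0.00202 in a two-sided exact permutation test, the smallest this design allows. Adjusted over 6238 windows, p was 0.0227, and 2 of these windows had a larger difference. By the same rule 8.66% of all windows were higher in GFP cells, and 16.7% were so before adjustment. The call ended whenever 1 of the 4 GFP libraries was left out, with differences of 1.62 to 1.97 and adjusted p of 0.0548 to 0.0576, where the smallest possible p is 0.00606. Against unsorted days 6 and 8 alone the difference was 1.62 (exact permutation test, p = 0.0286, adjusted p = 0.118). With group means as units it was 1.78 (exact permutation test, p = 0.0667, adjusted p = 0.303). Each of these p-values is the smallest its design allows. On peak numbers as listed the difference was 8.5 peaks with an adjusted p of 0.0728.

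At Pax3 the same groups overlapped. GFP cells had 0.89 ± 0.29 peaks per 10000 (n = 4) and unsorted cells 0.70 ± 0.19 (n = 8), a difference of 0.19 (two-sided exact permutation test, p = 0.212, adjusted p = 0.379). In base pairs covered per Mb of the list, GFP cells were 95.6 higher at Pax3, with an adjusted p of 0.0484 by the exact permutation test, and 4.92% of all windows were higher by that measure. Peaks wider than the commonest width of their list bear on this value: at chr1:78212375-78215225 each of the 4 GFP lists had 1 such peak, of 1258 to 2846 bp, and 3 of the 8 unsorted lists had 1, of 1197 to 1264 bp.

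Satellite cells, quiescent and activated, were compared with fibroblasts without doxycycline, which were the day 0 and FRG day 8 groups. At Pax7, density was 3.85 ± 0.64 per 10000 in the 4 satellite cell libraries and 1.52 ± 0.09 in the 4 libraries of day 0 and FRG cells, a ratio of 2.53 with no overlap. At Pax3 it was 1.69 ± 0.11 against 1.10 ± 0.20 (n = 4 each), a ratio of 1.53, also with no overlap. Each gave p = 0.0286 in a two-sided exact permutation test, the smallest that 4 against 4 libraries allow, and an adjusted p of 0.109. No window of the 6238 can pass the adjusted threshold unless many reach that smallest p, and none did; 11.8% of windows were higher in satellite cells before adjustment. The Pax7 difference of 2.32 was exceeded by 2 windows, the Pax3 difference of 0.59 by 1004. The Pax3 difference turned on peak numbers as listed, at 8.75 peaks on average in satellite cells and 11.75 in the fibroblasts, whose FRG lists are the longest of the series.

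GFP cells and satellite cells overlapped at Pax7 and did not at Pax3. At Pax7 the difference of GFP minus satellite cells was -0.48 per 10000 (exact permutation test, p = 0.286, adjusted p = 0.569). At Pax3 all 4 GFP libraries, between 0.65 and 1.28, lay below all 4 satellite cell libraries, between 1.58 and 1.83. That difference was -0.81, with p = 0.0286 and an adjusted p of 0.157 in the exact permutation test, so it did not pass, and 8.13% of windows were lower in GFP cells before adjustment. On base pairs covered the Pax3 difference was 18.0 per Mb in the other direction.

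**Figure D2:**
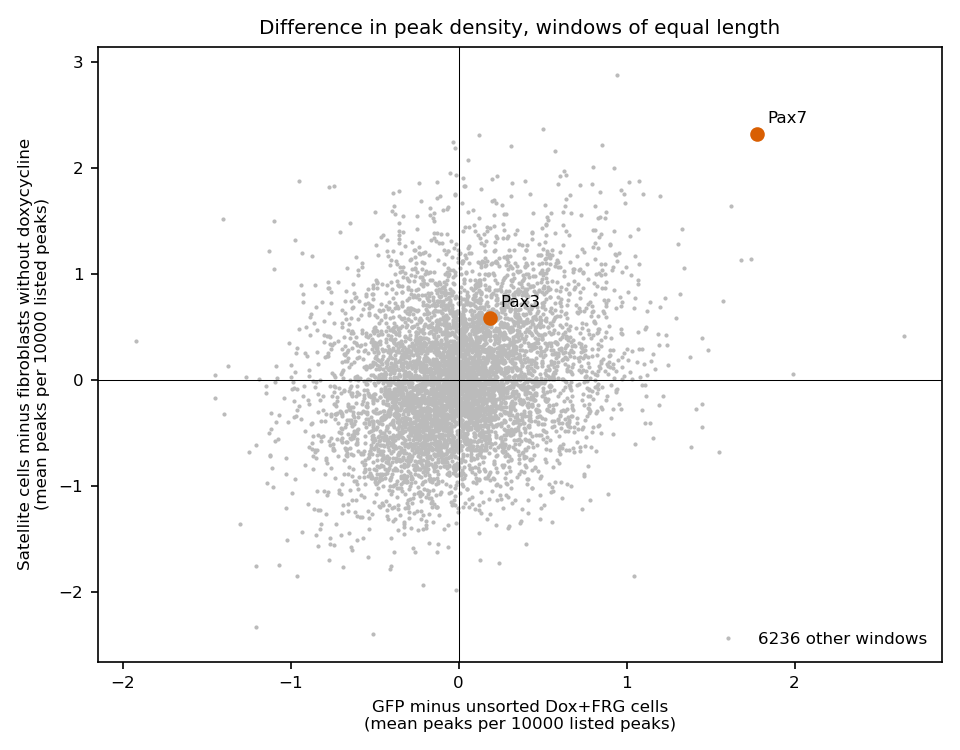
Each point is 1 of 6238 windows of 300 kb. The x axis is the mean peak density (peaks per 10000 listed peaks) of GFP minus unsorted Dox+FRG cells and the y axis that of satellite cells minus fibroblasts without doxycycline; Pax7 lies at 1.78 and 2.32, with 2 windows beyond it on each axis, and Pax3 at 0.19 and 0.59.

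What the small molecules added to MyoD was asked with Dox+FRG against Dox cells at days 4 and 8. Density at Pax7 was 1.60 ± 0.59 in Dox+FRG and 2.23 ± 0.27 in Dox cells (n = 4 each), a difference of -0.63 (exact permutation test, p = 0.0857, adjusted p = 0.227). At Pax3 it was 0.72 ± 0.18 and 1.09 ± 0.21, a difference of -0.38 (exact permutation test, p = 0.0571, adjusted p = 0.182). Neither passed, and 11.2% of all windows were lower in Dox+FRG cells before adjustment, with 0 after it. As listed, the difference was -13.75 peaks at Pax7 and -7.5 peaks at Pax3, each with an adjusted p of 0.0438 by the same exact permutation test. By that measure 65.2% of all windows were lower in Dox+FRG cells, so most windows passed with these. The Dox lists held 89871 to 130916 peaks and the Dox+FRG lists of these days 50608 to 70877. How much of the difference comes with list length was not tested.

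Along the conversion without sorting, from day 0 to Dox+FRG day 8, the relation of Pax7 density with day did not pass. Over 10 libraries r was 0.29 (permutation p = 0.418, adjusted p = 0.559) and rho 0.47 (permutation p = 0.183). The window narrowed by 50 kb on each side gave r = 0.67 (permutation p = 0.0367, adjusted p = 0.109). Wider peaks alone gave r = 0.76 (permutation p = 0.011, adjusted p = 0.254), and neither passed. Each of these libraries had 0 or 1 wider peak at Pax7, always in chr4:139253720-139254826, so that r describes a single region. Of 20 alternatives 2 reversed direction, and leaving out day 8 gave r = -0.24. At Pax3 the relation was negative (r = -0.69, permutation p = 0.0295; rho = -0.74, p = 0.0212), but the adjusted p of 0.0912 did not pass. Before adjustment 20.0% of windows fell with day and 19.0% rose; 12.2% fell after adjustment. Without day 0, r at Pax3 was -0.56 (permutation p = 0.152), and without day 8 it was -0.75 (permutation p = 0.0373).

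To place the peaks, those of the 27 lists other than MEF10_MyoD+FRG_Day6 replicate 2 were merged where they overlapped, which gave 43 regions at Pax7 and 35 at Pax3. A library is said to call a region when its list has a peak in it, and a group calls it when both libraries do. The 43 Pax7 regions were 61 to 1190 bp wide, and 34 of them lay within the span of the 202465 bp peak. In each window 7 regions were called in 1 library alone. Distances in brackets below run from the middle of the window, as on the maps of listed peaks.

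One Pax7 region was called in all 27 lists, chr4:139414518-139414883 (74.7 kb), and 1 Pax3 region, chr1:78212375-78215225 (63.8 kb). Every list had 1 or 2 peaks in the latter, but not at 1 shared site. Dox+FRG day 2 replicate 2 had only a peak at 62.388 to 62.593 kb there. Quiescent replicate 2 had peaks only at 63.641 to 63.813 and 64.965 to 65.137 kb. Over the genome 7.57% of 255567 regions were called in both day 0 and all 4 satellite cell libraries, and 2 of 43 Pax7 and 1 of 35 Pax3 regions were. The other such Pax7 region, chr4:139272472-139272987 (-67.3 kb), was called at day 0, in satellite, GFP, Dox and FRG cells, and in none of the 4 unsorted Dox+FRG libraries of days 6 and 8. Region chr4:139353294-139353550 (13.4 kb) followed a like course in these cells, with both libraries at day 2, 1 at day 4, none at days 6 and 8, and all 4 GFP libraries.

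Each locus held 1 region that was called in all 23 other lists and in neither day 0 nor FRG cells, the MEF14 groups without doxycycline. At Pax7 it was chr4:139327095-139327401 (-12.8 kb), 307 bp wide, and at Pax3 chr1:78176772-78178781 (27.8 kb), 2010 bp wide. Both were called in both libraries as early as day 2. Of all 255567 regions 0.0966% had this pattern, and 0.38% were called in every MEF14 library with doxycycline and in none without. Both patterns were picked with the calls in view, so these low shares describe rarity and test nothing. The same holds for the genome-wide shares of the other call patterns. At Pax3 the listed peaks in the 4 Dox libraries were 896 to 1886 bp wide there, against 78 to 88 bp as the commonest widths of those lists.

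Among Pax7 regions, 9 of 43 were called in all 4 satellite cell libraries and in no day 0 library, against 1.28% of all regions, and among Pax3 regions 2 of 35. Of these, 6 Pax7 regions and 1 Pax3 region were also called in all 4 GFP libraries, against 0.827% of all regions. All 6 were called in all 4 Dox libraries as well, and those at 21.3 and 37.5 kb also in both FRG libraries. The 6 appeared at different days in unsorted cells. Region chr4:139303183-139303528 (-36.6 kb) was called in both libraries from day 4 on. Region chr4:139253720-139254826 (-85.7 kb) was called in 1 library at day 4 and both from day 6, and chr4:139245619-139245902 (-94.2 kb) first at day 8, in both. Region chr4:139377392-139377692 (37.5 kb) was called in 1 library at days 2 and 4 and in both at days 6 and 8, and chr4:139360996-139361656 (21.3 kb) in both at days 2 and 8 but in none between. At 21.3 kb the merge joined offset peaks. Listed peaks there ran from 21.013 to 21.248 kb in quiescent cells and from 21.241 to 21.502 kb in GFP cells. The last of the 6 is the region at -12.8 kb named above.

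The remaining 3 satellite cell regions at Pax7 were rarer in converted cells. Region chr4:139338923-139339200 (-0.939 kb) was called in both day 10 GFP libraries, in neither at day 8 and in no unsorted Dox+FRG library, and chr4:139300787-139301018 (-39.1 kb) in 1 day 10 GFP library. The region at -0.939 kb was also called in both Dox day 4 libraries and in 1 Dox day 8 library, and that at -39.1 kb in no Dox library. Region chr4:139396992-139397284 (57.1 kb) was called in no Dox+FRG library, sorted or not, and in 3 of 4 Dox libraries.

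The peak at -85.7 kb stood out by width. It was a single peak of 933 to 1091 bp in Dox+FRG day 6 replicate 2, both day 8, all 4 GFP and both quiescent libraries, whose commonest widths were 160 to 190 bp. In the 4 Dox libraries it was 309 to 333 bp. In the activated satellite cells it had the commonest width of the list, 182 and 173 bp, so quiescent and activated cells differed there in listed width and not in call.

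At Pax7, 2 regions separated GFP cells from every unsorted Dox+FRG library, against 0.494% of all regions. Region chr4:139367009-139367254 (27.1 kb) was called in all 4 GFP lists and in no other of the 27. That pattern, also picked with the calls in view, was held by 0.141% of all regions. A neighbour of it, chr4:139366515-139366734 (26.6 kb), was called in both activated and 1 quiescent library and nowhere else. Region chr4:139388946-139389924 (49.4 kb) was called in the GFP, quiescent, Dox and FRG groups, in no unsorted Dox+FRG library, and in neither activated library. At Pax3 no region had the pattern of all GFP and no unsorted libraries.

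**Figure D3:**
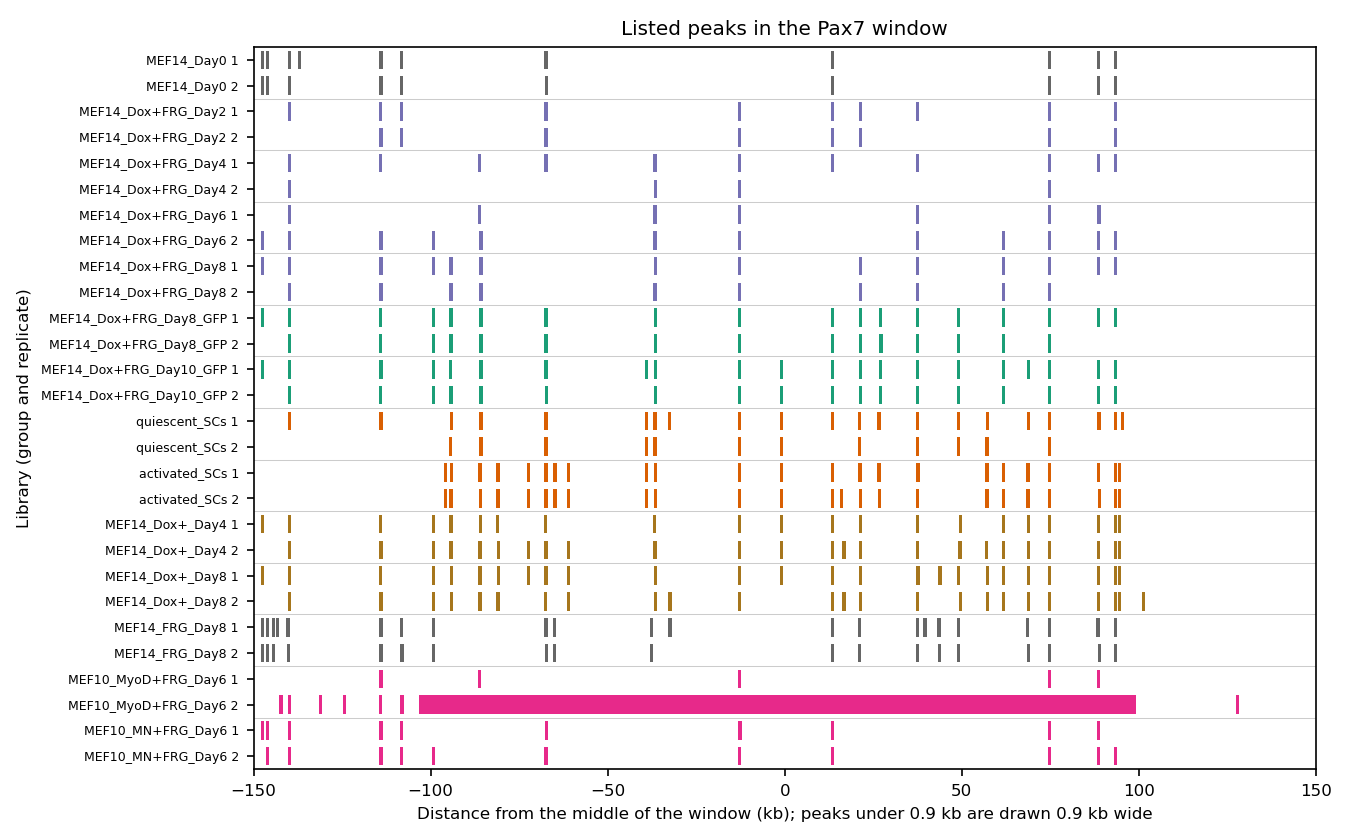
Listed peaks of the Pax7 window by library, with the distance from the window's middle in kb on the x axis; each bar is 1 peak, drawn at least 0.9 kb wide. GFP and satellite cell lists carry more peaks within the span of the long bar than day 0 and unsorted Dox+FRG lists. The long bar is the 202465 bp peak.

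Between activated and quiescent satellite cells, more Pax7 regions were gained than lost in activated cells, as was so over the genome. Of 29 Pax7 regions called in any of these 4 libraries, 7 were gained in activated cells (both libraries, and neither quiescent one) and 1 was lost. Genome-wide 17.5% of 87663 regions were gained and 10.8% lost. The 7 gained regions lay at -95.9, -81.0, -72.3, -64.9, -61.0, 61.8 and 94.6 kb, and none was called at day 0. They make up 7 of 43 Pax7 regions, against 3.04% of all regions. Region chr4:139244019-139244205 (-95.9 kb) was called in the 2 activated libraries and no other, as were 0.23% of all regions. That pattern too was picked with the calls in view. Regions chr4:139258946-139259136 (-81.0 kb) and chr4:139434472-139434702 (94.6 kb) were shared with all 4 Dox libraries and no further list. Region chr4:139267594-139267814 (-72.3 kb) was called in 2 Dox libraries and chr4:139278890-139279102 (-61.0 kb) in 3. Region chr4:139275010-139275214 (-64.9 kb) was shared with FRG cells alone. Only chr4:139401670-139401905 (61.8 kb) was also called in GFP cells, in all 4 libraries, and in both unsorted day 8 libraries. That region was called in all 4 Dox libraries and in 1 unsorted day 6 library as well. The region at 49.4 kb was the 1 lost, and 2.26% of all regions were called in both quiescent and in no activated or day 0 library. The count of gained regions was 12 without quiescent replicate 1. Without quiescent replicate 2, the shorter list, 7 regions were gained and 5 lost.

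At Pax3, 3 of 16 regions were gained in activated cells and 1 was lost. The gained ones were chr1:78054551-78055000 (-95.2 kb), chr1:78089657-78089887 (-60.2 kb), called in the 2 activated libraries alone, and chr1:78281268-78281507 (131 kb). The last was called in 13 lists: both libraries of Dox+FRG days 4, 6 and 8, of Dox at both days and of activated cells, and 1 of MEF10_MyoD+FRG, but in no GFP and no quiescent library. The lost one, chr1:78200381-78200603 (50.5 kb), was shared with FRG cells. Replicate 2 of the quiescent cells had the shorter list, 37910 peaks against 57859, and without it 4 Pax3 regions were lost. Without quiescent replicate 1 the lost count was 2, and without activated replicate 1 the gained count was 6.

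Day 10 GFP cells against day 0 fibroblasts gained 11 of 24 Pax7 regions called in either group and lost 2, against 18.2% gained and 21.9% lost of 108250 regions over the genome. At Pax3, 3 of 10 were gained and 4 lost. The 2 lost at Pax7 were chr4:139193843-139194045 (-146 kb) and chr4:139231482-139231963 (-108 kb), both outside the span of the widest peak and both also called in FRG and MEF10_MN+FRG cells. The 4 lost at Pax3 were at -137, -95.2, -92.4 and -24.0 kb and the 3 gained at -144, 27.8 and 36.2 kb. With the 202465 bp peak kept in the merge, 0 Pax7 regions were gained and 2 of 7 lost, because that peak joins 34 regions into 1, while the genome-wide shares were 18.0% and 21.8%.

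GFP cells of day 8 against unsorted cells of the same day gained 4 of 18 Pax7 regions and lost 0, where 3.58% of 77403 regions were gained and 13.4% lost. The 4 were the regions at -67.3, 13.4, 27.1 and 49.4 kb. At Pax3, 0 of 7 were gained and 1, the region at 131 kb, was lost. Without GFP replicate 2 the Pax3 gains were 3, and without unsorted replicate 1 the losses were 2. With all 28 lists merged the Pax7 counts were 0 and 0 of 4, and the genome-wide shares 3.57% and 13.3%.

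Dox+FRG against Dox cells at day 8 gained 0 and lost 8 of 28 Pax7 regions, and gained 0 and lost 3 of 17 Pax3 regions. Genome-wide 1.39% of 144260 regions were gained and 28.4% lost, so the share of losses at either locus was near or below that of the genome. The 8 lost at Pax7 were at -81.0, -67.3, -61.0, 13.4, 49.4, 57.1, 68.7 and 94.6 kb, and 3 of them, at -67.3, 13.4 and 49.4 kb, were called in both day 8 GFP libraries. The 3 lost at Pax3 were at -99.5, 33.9 and 81.0 kb, the first 2 of them called in no other list. Without Dox replicate 1 the Pax3 losses were 12. With all 28 lists merged, Pax7 had 0 gained and 0 lost of 5, with genome-wide shares of 1.38% and 28.2%. For activated against quiescent cells that merge gave 0 and 0 of 3 at Pax7 and 17.2% and 10.8% over the genome.

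Fibroblast regions, called in both day 0 and no satellite cell library, were 3 of 43 at Pax7 and 2 of 35 at Pax3, near the share of 6.7% of all regions. Both FRG libraries and no other MEF14 or satellite cell library called 8 of 35 Pax3 and 2 of 43 Pax7 regions, against 11.4% of all regions. One of the 8, chr1:78225447-78225660 (75.6 kb), was also called in both MEF10_MN+FRG libraries.

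**Figure D4:**
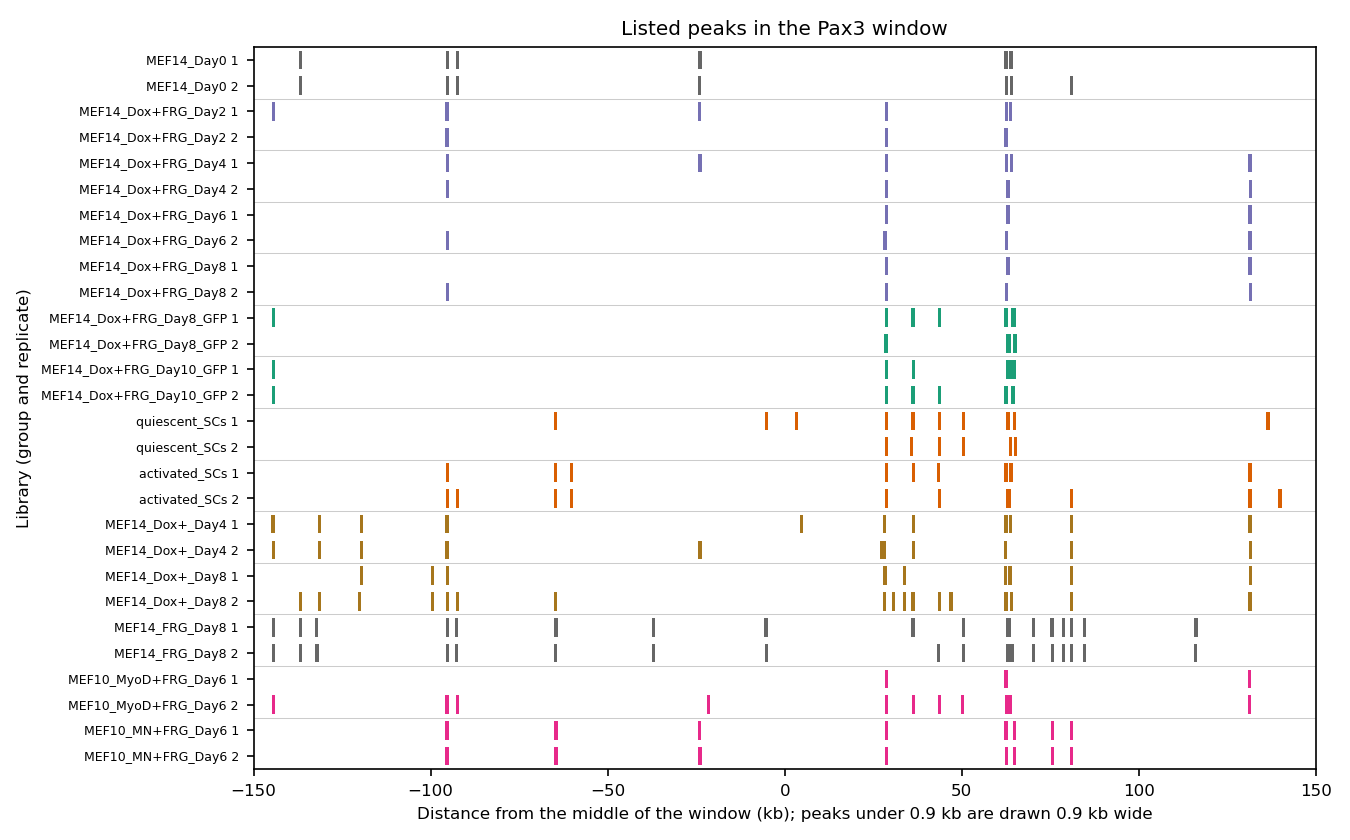
Listed peaks of the Pax3 window by library, with the distance from the window's middle in kb on the x axis; each bar is 1 peak, drawn at least 0.9 kb wide. All lists have peaks between about 62.3 and 65.2 kb, though not at 1 shared site. The peak near 27.8 kb is missing only in the day 0 and FRG lists, and FRG lists hold 17 peaks each.

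The reporter is a transgene with Pax7 sequence, so its copies may add reads at Pax7, and reads of transgene copies and of the endogenous gene cannot be told apart in these lists. Per the labels the day 0 fibroblasts carry it too. Within the span of the 202465 bp peak, day 0 libraries had 5 and 5 peaks, GFP libraries 13 to 18, quiescent libraries 19 and 12 and activated libraries 23 and 24. In the remaining 97.5 kb of the window, day 0 libraries had 6 and 5 peaks, GFP libraries 2 or 3, quiescent libraries 2 and 0 and activated libraries 0. The density inside the span was higher by 1.66 per 10000 in GFP than in unsorted Dox+FRG cells (exact permutation test, p = 0.00202, adjusted p = 0.0227), and outside it by 0.11 (p = 0.178, adjusted p = 0.338). Satellite cells were 2.88 per 10000 above fibroblasts without doxycycline inside the span and lay 0.55 below them outside it, a difference of -0.55, with p = 0.0286 and an adjusted p of 0.109 in each exact permutation test. Inside the span, density along day 0 to day 8 had r = 0.67 with day (permutation p = 0.0367, adjusted p = 0.105). The span was taken from a MEF10 list that none of these comparisons uses, after the lists had been seen. The part of transgene copies in these values was not tested.

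**Figure D5:**
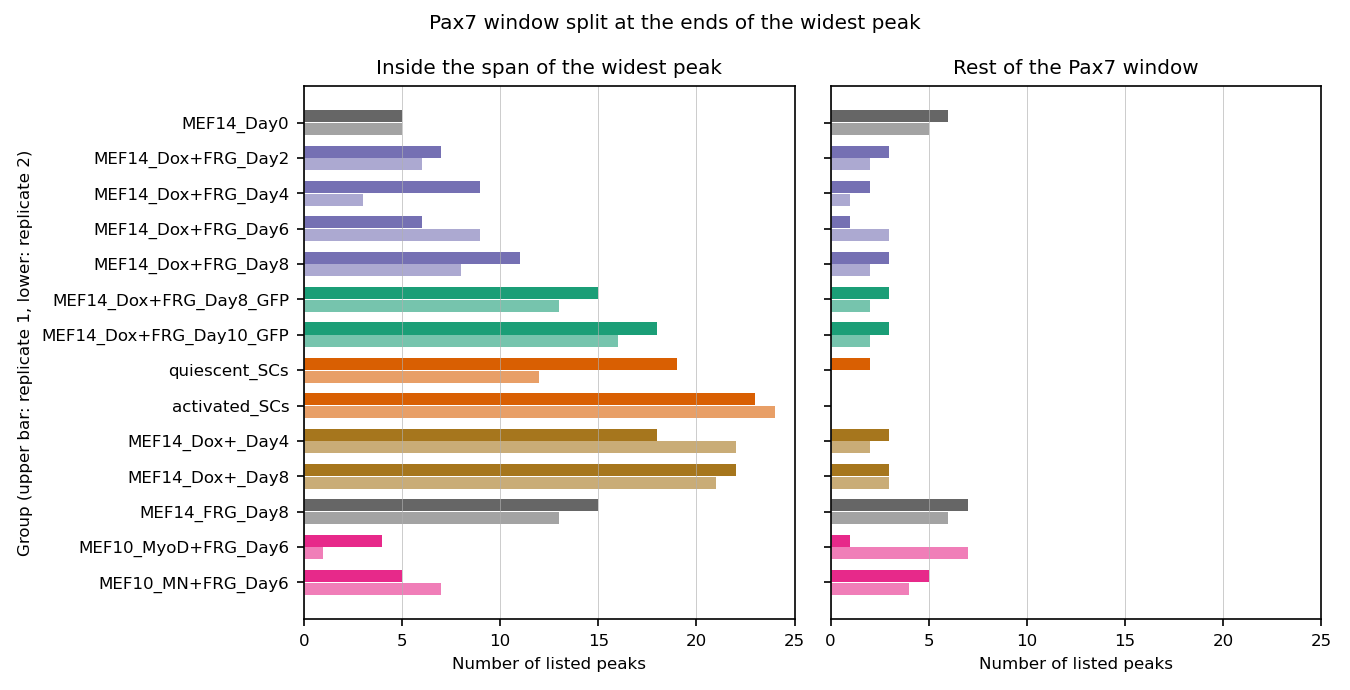
Number of listed peaks in the Pax7 window, inside the span of the 202465 bp peak (left) and in the rest of the window (right), with 1 bar per library and 2 per group. Inside the span the bars run from 1 to 24 and are longest in activated satellite cells; outside it they run from 0 to 7.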

How the data were processed

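Peaks of 28 ATAC-seq libraries were used as the authors deposited them: 1 list per library with the chromosome, start and end of each peak, and no score or read number. BWA, HOMER and mm9 are named in the submitters' processing notes. Their versions, the peak threshold and read filters are not stated there. Starts, taken as 0-based, are printed 1-based.

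Per the labels' protocols 60000 cells entered a reaction. Peaks per 10000 listed peaks were compared by two-sided exact permutation tests over libraries, or by 100000 resamples for relations with day (smallest p 1e-05), with Benjamini-Hochberg adjustment in each of 5 comparisons over the 6238 of 8782 windows of 300 kb that averaged at least 3 peaks. Calls needed an adjusted p of at most 0.05. Python 3.11.15, numpy 2.4.6 and scipy 1.17.1 were used, and the tests were tested on simulated data. Merging peaks that shared at least 1 bp gave 253225 regions over 28 lists and 255567 over 27. With 2 libraries against 2 no test was made.

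Members, windows and measures were chosen with earlier results of these data known. Regions were described one by one where they were called in nearly every list, gained or lost in a comparison, or called in both libraries of a satellite cell group and in no day 0 library; other regions are given by counts. This rule had been written for regions over 28 lists and was applied to those over 27 after the lists had been seen, and the call patterns given were chosen then too. Planned counts of marker and pathway genes were not made, because no mm9 annotation was used here. Deviations of same-numbered libraries from their group means had r from -0.25 to 0.21 over 91 pairs of groups, above 0.1 in 10 of them, so numbers were not used to pair libraries. Alternatives were peak numbers as listed, wider peaks alone, base pairs covered, placement by the peak's middle, a window narrowed by 50 kb on each side, other groupings and each library left out.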

Additional observations from a re-analysis of the deposited data

Results flagged for a closer look

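One signal came from a list that no comparison of peak density uses. In MEF10_MyoD+FRG_Day6 replicate 2 the Pax7 window held a single peak of 202465 bp, chr4:139236687-139439151. It was the widest peak of all 28 lists, 2.58 times as wide as the next, of 78358 bp on chromosome 11 in the same list. The 5 widest peaks of the series were all in that list, and replicate 1 of its group had 4 peaks in the span, with 155 bp as the widest of its Pax7 window. The part that transgene copies have in it was not tested.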

How the results depend on the processing

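Of 178 alternatives to the 10 tests of peak density, 152 kept direction and side of the threshold and 13 reversed direction. The cause was not tested. Some of the 152 could not have come out otherwise. The replicate block and group means as units leave a difference between groups as it was. With group means the smallest exact permutation p is 0.333, or 0.0667 for GFP against unsorted cells, so no such test could pass. At Pax7, GFP minus unsorted cells was 8.5 peaks as listed, 1.80 on wider peaks alone (adjusted p = 0.325), 1.78 with group means as units (adjusted p = 0.303), 1.62 against days 6 and 8, 1.62 to 1.97 with 1 GFP library left out, and 0.11 outside the span of the widest peak, a split added after the lists were seen, all no longer past the threshold by the exact permutation test; leaving out any of the 8 unsorted libraries kept the call (1.66 to 1.85). At Pax3, base pairs covered gave 95.6. Dox+FRG minus Dox cells became -13.75 peaks at Pax7 and -7.5 at Pax3 as listed, past the threshold, and at Pax7 turned to 18.2 on base pairs covered and 0.069 outside the span. Satellite cells minus fibroblasts turned to -3.0 listed peaks at Pax3 and -0.55 outside the span at Pax7. GFP minus satellite cells turned to 1.34 at Pax7 and 1.62 at Pax3 on wider peaks, 6.61 and 18.0 on base pairs, and 0.39 outside the span at Pax7. The day 0, Dox+FRG, GFP and satellite cell lists each had only 0 or 1 wider peak per window. The relation with day at Pax3 turned to r = 0.48 on wider peaks and 0.30 on base pairs, and passed at -0.79 in the narrowed window (permutation test, adjusted p = 0.0418); at Pax7 it turned to -0.24 without day 8 and -0.62 outside the span.

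Region counts at Pax7, with 28 lists merged, moved when regions were merged over 27 lists or over the 4 libraries compared: gained from 0 to 11 for GFP day 10 against day 0, from 0 to 4 for GFP day 8, and from 0 to 7 with 1 lost in place of 0 for activated cells, and lost from 0 to 8 for Dox+FRG against Dox. On wider peaks alone GFP day 10 gained 1 and lost 0 at each locus, activated cells lost 1 at Pax7 and gained 0 and lost 0 at Pax3, and GFP day 8 lost 0 at Pax3, where merging the 4 libraries compared gave 1 gained. With 1 library left out, gained counts at Pax3 ran from 0 to 3 for GFP day 8 and 3 to 6 for activated cells, and lost counts from 1 to 2, 1 to 4 and, for Dox+FRG against Dox, 3 to 12 (without Dox replicate 1); at Pax7 lost counts ran from 0 to 2 for activated cells and 0 to 1 for Dox+FRG. Over 27 lists, leaving out 1 library gave 11 to 13 gained and 2 to 3 lost for GFP day 10, 4 to 5 and 0 for GFP day 8, 7 to 12 and 1 to 5 for activated cells, and 0 and 8 to 11 for Dox+FRG at Pax7. An overlap of 50% cannot change a call, since a peak lies wholly in its merged region. Lists without read numbers limit what a missing peak means.

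Replicate numbers were not taken to pair the libraries (r above 0.1 in 10 of 91 pairs of groups). With the number as a replicate block, only the permutations were restricted, so the differences stayed the same by construction. At Pax7 and Pax3 the exact permutation p was 0.00444 and 0.249 for GFP against unsorted cells. For Dox+FRG against Dox it was 0.111 at both, and for satellite cells against fibroblasts 0.0556 at both. For GFP against satellite cells it was 0.278 and 0.0556. The r with day was 0.29 and -0.69, and no call changed.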

Other observations

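Across the 14 group means, the windows whose density was most like that of Pax7 were chr4:96900001-97200000 (r = 0.86), chr12:111900001-112200000 (r = 0.85) and chr11:71400001-71700000 (r = 0.85). For Pax3 they were chr5:90300001-90600000 (r = 0.94), chr1:157200001-157500000 (r = 0.87) and chr1:141900001-142200000 (r = 0.86). Pax7 and Pax3 had r = 0.62 with each other. These values describe 14 means that share list lengths, and are the highest among 6238 windows, so they carry no test.

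In the MEF10 groups, MEF10_MN+FRG called the Pax7 region at -12.8 kb and the Pax3 region at 27.8 kb in both libraries. So did all MEF14 groups with doxycycline and both satellite cell groups, and no label states if MEF10_MN+FRG had doxycycline. MEF10_MN+FRG also differed from satellite cells. It called none of the other 8 Pax7 regions that all satellite cell libraries shared and day 0 lacked. MEF10_MyoD+FRG replicate 1, the shortest list with 37301 peaks, called 2 of those 9, at -12.8 and -85.7 kb.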
